A study of Mus musculus with 12 samples.

Results

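The axon guidance ligands and receptors were the mouse genes whose symbols belong to the semaphorins (Sema3 to Sema7), plexins, neuropilins, ephrins, Eph receptors, Slits, Robos, netrins, Unc5 receptors and Dcc. The rule was on symbols only, and it took 69 of the 56860 named genes in the count table, 35 ligands and 34 receptors. Every one of the 69 had a read in at least 1 library, and 62 passed the filter on low counts and were tested. The 7 that did not pass were Sema3g, Epha1, Epha6, Epha8, Robo3, Robo4 and Ntn5, with siNC median levels between 0 and 0.323 CPM, the reads of a gene scaled to a common library total with TMM factors, which correct for differences in composition.

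Guidance genes encode secreted and membrane-bound cues and the receptors that read them, and they are best known for steering growing axons. Semaphorins bind plexins, and the secreted class 3 semaphorins use the neuropilins as co-receptors. Ephrins are held at the cell surface and bind Eph receptor tyrosine kinases on a neighbouring cell, Slits bind Robos, and netrins bind Dcc and the Unc5 receptors. In the oligodendrocyte lineage, netrins, semaphorins and ephrins are known as cues for precursor migration and process extension, and several of the same receptors also act in blood vessel growth.

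The cells were primary oligodendrocytes (OLs) of C57BL/6J mice. In the study's methods they were enriched from the cortex of newborn pups with beads against the O4 surface antigen, expanded with PDGF-AA and then differentiated with insulin, triiodothyronine and ciliary neurotrophic factor; the labels give the tissue as medial prefrontal cortex. The 6 siNC libraries came from cells that received a negative control, which the methods describe as a scrambled small interfering RNA (siRNA), and the 6 siEgr2 libraries from cells treated for 48 h to reduce Egr2, a zinc finger transcription factor. In the methods the Egr2 reagent is called an siRNA in one place and a plasmid in another. Nothing says that the libraries of a group came from separate cultures or animals, so the p-values measure the spread between these libraries, which may be technical. Some libraries were close pairs: the chi-square per gene between counts was 12.7 and 13.4 for siNC replicates 1 and 5 and 3 and 6, against 20.5 to 37.2 for the other 13 siNC pairs, and 7.15 to 8.33 for siEgr2 replicates 1 and 2, 3 and 5, and 4 and 6, against 12.5 to 25.4 for the other 12. If such pairs shared a culture, 6 libraries per group would overstate the independent units and the adjusted and permutation p-values would be too small; a fit with each close pair summed into 1, chosen after these values were seen, left 4 siNC and 3 siEgr2 units and is given with the results.

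Total counts were 28682946 to 39383014 in the siNC libraries and 8034251 to 16683677 in the siEgr2 libraries, and the ribosomal RNA gene Rn18s-rs5 took 0.1415% to 1.055% of counts in siNC and 10.52% to 16.53% in siEgr2. Depth and this share thus divided the libraries in the same way as the treatment, and their part in the differences below cannot be told apart from it. With every library thinned to the smallest total, 10 of 60 tested guidance genes and 7.57% of all genes were called, and with ribosomal and other structural RNA left out 11 of 62 and 7.64%. Egr2 itself was low in every library, with a lowest, median and highest level of 3.89, 5.19 and 7.06 CPM in siNC and 2.22, 3.93 and 4.86 CPM in siEgr2. The groups overlapped, and its log2 fold change (siEgr2 over siNC) of -0.51 ± 0.21 (SE) did not pass the test (edgeR adjusted p = 0.0981). Markers of both precursors and myelinating OLs were abundant, and the myelinating OL list summed to 8316 to 9491 CPM in siNC and 7813 to 8158 CPM in siEgr2.

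A gene was called when its edgeR quasi-likelihood adjusted p was under 0.05 and its log2 fold change was beyond 0.5 in either direction, the study's thresholds. Of all 16600 genes tested, 7.72% were called, 5.08% lower and 2.63% higher in siEgr2. Among the 62 tested guidance genes 11 were called (17.7%), 10 of them lower (16.1%) and 1 higher (1.61%). The adjusted p alone was passed by 19.9% of all genes and by 22 guidance genes (35.5%), 16 of them lower and 6 higher. The 2 groups of libraries did not overlap for 11.2% of all genes and for 12 guidance genes (19.4%). The median log2 fold change was -0.09 over the tested guidance genes and 0.00 over all genes, and 43 of the 62 were negative. With the close pairs summed, 7 guidance genes were called, 6 lower (Ephb4, Sema4b, Plxnd1, Ntn3, Ntn4 and Nrp2) and Sema4f higher, 11 passed the adjusted p alone, and 5.48% of all genes were called.

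**Figure D1:**
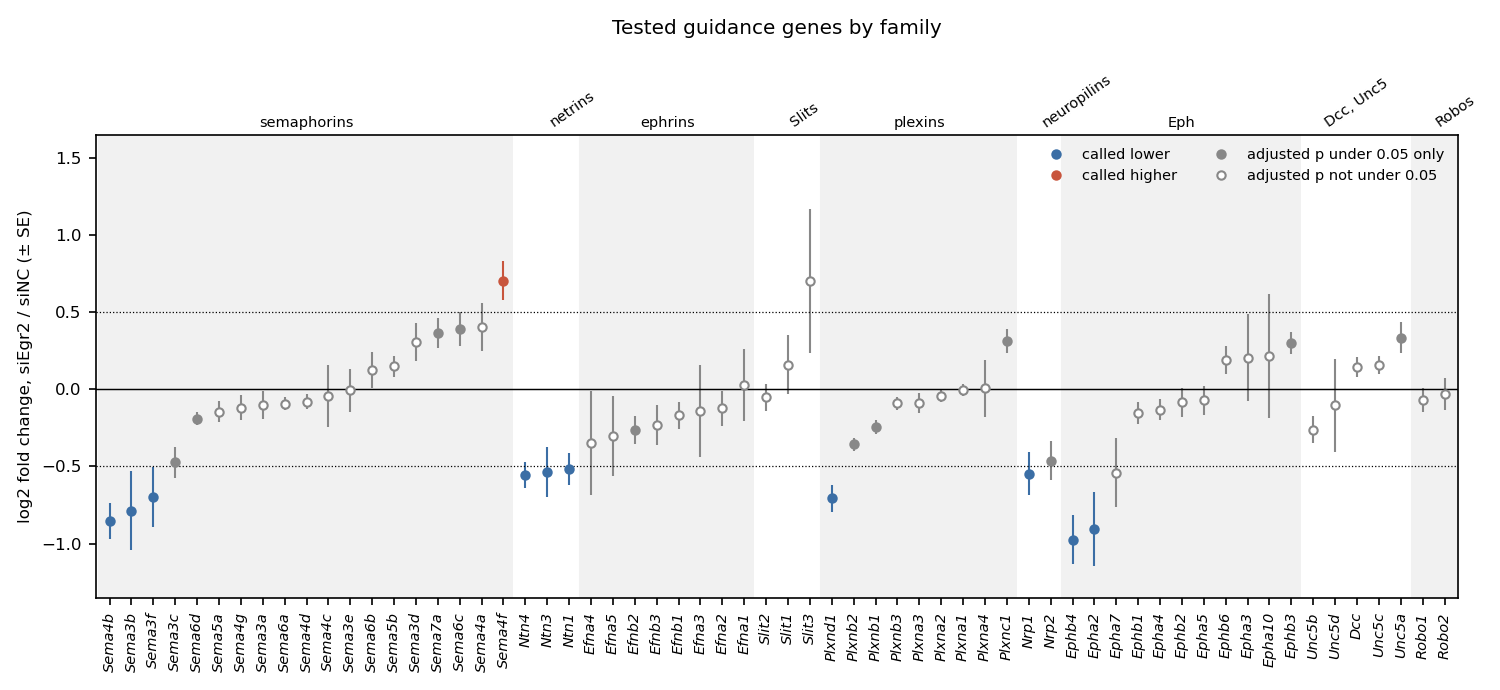
Log2 fold change (siEgr2 over siNC, vertical axis) with its standard error for the 62 tested guidance genes, grouped by family; filled colours mark called genes, grey fill an adjusted p under 0.05 alone, and dotted lines the fold threshold of 0.5. The 10 genes called lower lie in the semaphorins, netrins, plexins, neuropilins and Eph receptors, all 3 tested netrins sit below -0.5, and Sema4f is the single called riser.

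The promoters of 4 called genes are shown because Egr2 and its relatives bind DNA at GC-rich sites, of which GTGGGCG is the core. Sema4b and Plxnd1 were the called genes with these letters in a window, Ntn4, like Ephb4, had 4 copies of the GC box GGGCGG, and Sema4f was the riser. Sema4b has 2 RefSeq starts, and the window shown is the one inside the gene; the window at its upstream start (chr7:80186620-80186919) holds GGGCGG but not GTGGGCG. Each run is the RefSeq promoter on GRCm38.p6, 250 bases before to 50 after the start, read on the gene's own strand, with GTGGGCG and GGGCGG on either strand in capitals; where they overlap they form 1 longer run.
Sema4b, chr7:80198338-80198637, plus strand: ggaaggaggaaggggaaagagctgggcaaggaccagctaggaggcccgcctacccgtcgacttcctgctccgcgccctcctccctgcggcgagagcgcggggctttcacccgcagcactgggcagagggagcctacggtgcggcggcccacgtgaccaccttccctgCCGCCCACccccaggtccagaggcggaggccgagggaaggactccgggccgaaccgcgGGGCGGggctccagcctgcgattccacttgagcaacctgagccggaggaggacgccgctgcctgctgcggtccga
Plxnd1, chr6:115994956-115995255, minus strand: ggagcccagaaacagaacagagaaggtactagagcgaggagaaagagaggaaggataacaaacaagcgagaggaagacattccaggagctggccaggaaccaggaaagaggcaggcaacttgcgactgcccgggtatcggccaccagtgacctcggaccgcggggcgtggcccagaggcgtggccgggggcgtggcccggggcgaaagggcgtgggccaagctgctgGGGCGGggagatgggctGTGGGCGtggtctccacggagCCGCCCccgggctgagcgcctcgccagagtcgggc
Ntn4, chr10:93640799-93641098, plus strand: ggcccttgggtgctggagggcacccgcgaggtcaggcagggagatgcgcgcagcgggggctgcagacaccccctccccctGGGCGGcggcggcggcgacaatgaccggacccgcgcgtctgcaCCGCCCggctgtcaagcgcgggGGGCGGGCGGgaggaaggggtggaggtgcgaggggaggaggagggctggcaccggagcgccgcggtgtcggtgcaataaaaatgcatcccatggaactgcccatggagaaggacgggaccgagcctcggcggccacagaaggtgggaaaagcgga
Sema4f, chr6:82939720-82940019, minus strand: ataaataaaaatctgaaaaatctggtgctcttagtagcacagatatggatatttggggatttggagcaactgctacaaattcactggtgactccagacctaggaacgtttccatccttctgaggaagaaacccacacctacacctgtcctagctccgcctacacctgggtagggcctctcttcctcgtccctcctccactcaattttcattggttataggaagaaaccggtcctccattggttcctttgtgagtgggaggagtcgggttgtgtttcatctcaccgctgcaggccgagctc

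The Sema4b run holds GTGGGCG on its reverse strand 82 bases before the start, and the Plxnd1 run holds it 6 bases before the start. The first 3 windows were rich in G and C (71.7%, 67.0% and 72.0%) and the Sema4f window, with 48.7%, was below the median of 52.7% over all 32851 promoter windows. RefSeq windows were matched for 59 guidance genes (75 windows), 8 of them called (9 windows), and Ntn1, Sema3f and Sema3b had no entry. For 8 of these 9 called windows, bases after the start were also found in a transcript of the gene. GTGGGCG was in 2 of the 9 called windows (22.2%) and 7 of the 59 windows of tested guidance genes not called (11.9%). It was in 12% of all guidance windows, which include the called ones, and 7.97% of all promoter windows. GGGCGG was in 8 of the 9 (88.9%), 67.8% of the windows not called, 70.7% of guidance windows and 35.7% of all windows. TATAAA was in 0 of the 9, and in 3.39%, 2.67% and 13.6% of those sets in the same order. These are matches of letters, not binding sites, and the absence of a match speaks only of these letters in this window.

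Of the 20 semaphorins, 19 were tested, 3 fell (Sema4b, Sema3b and Sema3f), 1 rose (Sema4f), and 4 more passed the adjusted p alone. On the scale of CPM per kb of exon, which allows genes to be compared, Sema4d, a membrane semaphorin that binds B-type plexins, was the most abundant at 23.4 in siNC and 22.1 in siEgr2. Its lowest, median and highest levels were 166, 182 and 189 CPM in siNC and 157, 165 and 185 CPM in siEgr2, and its log2 fold change of -0.08 ± 0.05 (SE) did not pass (adjusted p = 0.289). The summed level of the family ran from 1255 to 1382 CPM in siNC and from 1216 to 1325 CPM in siEgr2, which overlap.

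Sema4b, a membrane semaphorin of class 4 (chromosome 7, 80186841 to 80226527), had a lowest, median and highest level of 21.0, 28.2 and 31.5 CPM in siNC and 12.7, 14.2 and 18.4 CPM in siEgr2. Every siNC library was above every siEgr2 library. The level fell to 0.553 of siNC, a log2 fold change of -0.86 ± 0.12 (SE, n = 6 per group; edgeR adjusted p = 6.14e-05), and the exact permutation p was 0.00216, the smallest that 6 libraries against 6 allow. Sema4f, of the same class (chromosome 6, 82911885 to 82939769), moved the other way, from 6.09, 6.70 and 7.95 CPM in siNC to 8.34, 11.97 and 12.9 CPM in siEgr2. The groups were again apart, the level was 1.63 times that in siNC, and the log2 fold change was 0.70 ± 0.13 (adjusted p = 7.55e-04). Per kb of exon, Sema4b stood at 4.86 and Sema4f at 1.3 CPM in siNC, and at 2.68 and 2.12 CPM in siEgr2.

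Class 3 holds the secreted semaphorins. Of its 6 tested genes 2 were called, both lower, and no class 3 gene was called higher. Sema3f, the ligand that prefers neuropilin-2 (chromosome 9, 107681500 to 107710475), had 4.86, 5.93 and 9.09 CPM in siNC and 3.36, 3.8 and 5.74 CPM in siEgr2. The groups overlapped through 1 siEgr2 library, and the log2 fold change was -0.70 ± 0.19 (SE; adjusted p = 0.0167; exact permutation p = 0.00866). It lost its call in limma-voom (adjusted p = 0.0732), with the close pairs summed (0.143) and without siNC replicates 3 and 6 (-0.44; 0.138). Sema3b, its neighbour on chromosome 9 (107597674 to 107609229), had 2.81, 3.47 and 3.63 CPM in siNC and 0.780, 1.88 and 3.23 CPM in siEgr2, with as few as 8 reads in a siEgr2 library. Its fall of 0.79 on the log2 scale carried an SE of 0.25 (adjusted p = 0.0385) and lost its call in 12 of 24 alternative analyses through the adjusted p (at most 0.128), while the log2 fold change stayed between -1.02 and -0.64. Sema3c had a small adjusted p but a difference under the fold threshold, at 17.5, 21.7 and 23.3 CPM in siNC and 13.5, 14.9 and 19.3 CPM in siEgr2 (log2 fold change -0.47 ± 0.10; adjusted p = 0.00269).

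The remaining semaphorins past the adjusted p had smaller differences. Sema6d, a transmembrane ligand of class A plexins, was at 178 to 193 CPM in siNC and 150 to 172 CPM in siEgr2, without overlap but with a log2 fold change of only -0.19 ± 0.04 (SE; adjusted p = 0.00377). Sema6c, of the same class, was higher in siEgr2 without overlap (10.8 to 11.996 against 12.4 to 19.6 CPM; log2 fold change 0.39 ± 0.11; adjusted p = 0.0187). Sema7a, which is anchored by a lipid to the membrane and binds Plxnc1, was at 17.6, 19.7 and 24.2 CPM in siNC and 23.2, 25.4 and 31.1 CPM in siEgr2 (log2 fold change 0.36 ± 0.10; adjusted p = 0.0132). The other 11 tested semaphorins did not pass.

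**Figure D2:**
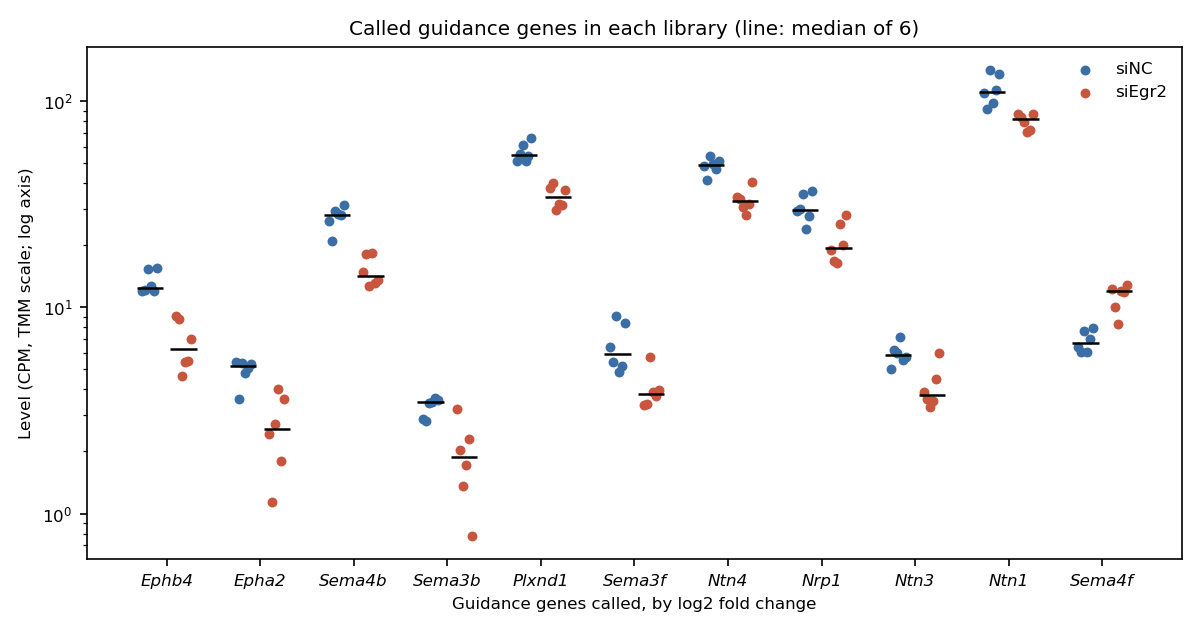
Level (CPM on the TMM scale, log axis) of the 11 called guidance genes in each of the 6 siNC and 6 siEgr2 libraries, one point per library, with a line at the median of each group. The groups are apart for Ephb4, Sema4b, Plxnd1, Ntn4, Ntn1 and Sema4f and overlap for the other 5, and Sema4f alone is higher in siEgr2.

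The netrins are secreted laminin-like proteins, and all 3 that could be tested fell; Ntn5 had too few reads. Ntn1, the ligand of Dcc and the Unc5 receptors (chromosome 11, 68209364 to 68400823), was the most abundant, at 18.3 CPM per kb in siNC. Its lowest, median and highest levels were 91.3, 112 and 141 CPM in siNC and 70.7, 81.7 and 87.1 CPM in siEgr2. No siEgr2 library reached the lowest siNC library, and the level was 0.698 of siNC (log2 fold change -0.52 ± 0.10, SE; adjusted p = 0.00272; exact permutation p = 0.00216). Ntn4, which binds laminin and is a component of basement membranes (chromosome 10, 93640681 to 93747207), was at 41.3, 49.1 and 54.4 CPM in siNC and 28.1, 32.7 and 40.4 CPM in siEgr2, also apart (log2 fold change -0.56 ± 0.08; adjusted p = 1.83e-04). Ntn3 (chromosome 17, 24203848 to 24209531) was much lower per kb than Ntn1 (1.17 CPM per kb in siNC), at 5.03, 5.88 and 7.20 CPM against 3.27, 3.74 and 6.04 CPM in siEgr2. Its groups overlapped through 1 siEgr2 library (log2 fold change -0.54 ± 0.16; adjusted p = 0.0270), and 2.7% of its exon bases lie opposite the antisense gene BC028777, whose reads may be shared since the strand setting of the counting is not given in the sources used here.

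Ntn1 and Ntn3 lost their calls in part of the alternatives. Ntn1 was still past the adjusted p but no longer past a log2 fold change of 0.5 without siNC replicate 3, siNC replicate 6, siEgr2 replicate 4 or siEgr2 replicate 5, with values from -0.58 to -0.45 over all single leave-outs. Ntn3 no longer passed the adjusted p without siNC replicate 4 or without siEgr2 replicate 2, 3 or 4 (0.0541 to 0.0622), with the replicate number as a block (0.0584) or without siNC replicates 3 and 6 (0.0789), and its log2 fold change ran from -0.68 to -0.48 over all single leave-outs. Ntn4 kept its call whichever single library was left out (-0.62 to -0.51). With the close pairs summed Ntn1 no longer passed the adjusted p (-0.46; 0.0697), while Ntn4 (-0.55; 0.00308) and Ntn3 (-0.61; 0.0493) did.

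Of the 5 Dcc and Unc5 receptors 0 were called, where 7.72% of all genes tested were. Dcc was the most abundant of the 5 on the per-kb scale (8.01 CPM per kb in siNC), with 90.4, 109 and 116 CPM in siNC and 102, 118 and 126 CPM in siEgr2; the difference of 0.14 ± 0.06 (log2, SE) did not pass (adjusted p = 0.127), and when libraries were scaled by their totals alone it was -0.04, a move of the same size as that scaling gave the median of all genes (to -0.18). Unc5a, a receptor for the repulsive response to netrin, was higher in siEgr2 below the fold threshold, at 10.01, 12.5 and 14.02 CPM in siNC and 13.5, 15.5 and 17.4 CPM in siEgr2 (log2 fold change 0.33 ± 0.10; adjusted p = 0.0265). That p was not under 0.05 with libraries scaled by their totals alone (0.277, at a log2 fold change of 0.15), nor without the filter on low counts (0.0723), with libraries thinned (0.0989), with close pairs summed (0.143), without siNC replicates 3 and 6 (0.0710) or with any of 5 single libraries left out, where, apart from the first of these, the difference stayed at 0.28 or more. All 3 tested netrins were called lower and 0 of these 5 receptors were called, but 5 genes are too few to show a share below 7.72%. The netrin and Dcc list described below holds 2 related genes outside the rule. Neo1, the gene of the Dcc relative neogenin, was lower (log2 fold change -0.15, edgeR adjusted p = 0.00497). Dscam was higher (0.39, edgeR adjusted p = 9.52e-05), and both were under the fold threshold. Whether ligands and receptors differ was not tested.

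None of the 8 ephrins was called and none of the 3 Slits passed the adjusted p. Efnb3, a transmembrane ephrin, led its family at 9.30 CPM per kb in siNC, and its levels of 23.0, 30.7 and 33.1 CPM in siNC and 18.5, 23.8 and 32.3 CPM in siEgr2 overlapped (log2 fold change -0.23 ± 0.13, SE; adjusted p = 0.240). Efnb2, named here after its value was seen because it was the single ephrin past the adjusted p, had a log2 fold change of -0.26 ± 0.09 (adjusted p = 0.0486). That p was over 0.05 in most of the alternative analyses, up to 0.309 with close pairs summed, and 7 of the 8 ephrins were negative. Slit2, a secreted repellent, led the Slits at only 1.013 CPM per kb, with 23.0, 25.6 and 28.8 CPM in siNC and 21.4, 25.04 and 28.9 CPM in siEgr2 (log2 fold change -0.05 ± 0.09; adjusted p = 0.731).

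Among the receptors, the 3 B-type plexins were the most highly expressed guidance genes per kb of exon. Plxnb3, a B-type plexin, reached 85.1 CPM per kb in siNC and 79.9 in siEgr2, the highest level of any guidance gene, and did not pass the test (516, 559 and 580 against 474, 520 and 560 CPM; log2 fold change -0.09 ± 0.04, SE; adjusted p = 0.163). Plxnb2 and Plxnb1 followed at 42.6 and 33.2 CPM per kb in siNC.

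**Figure D3:**
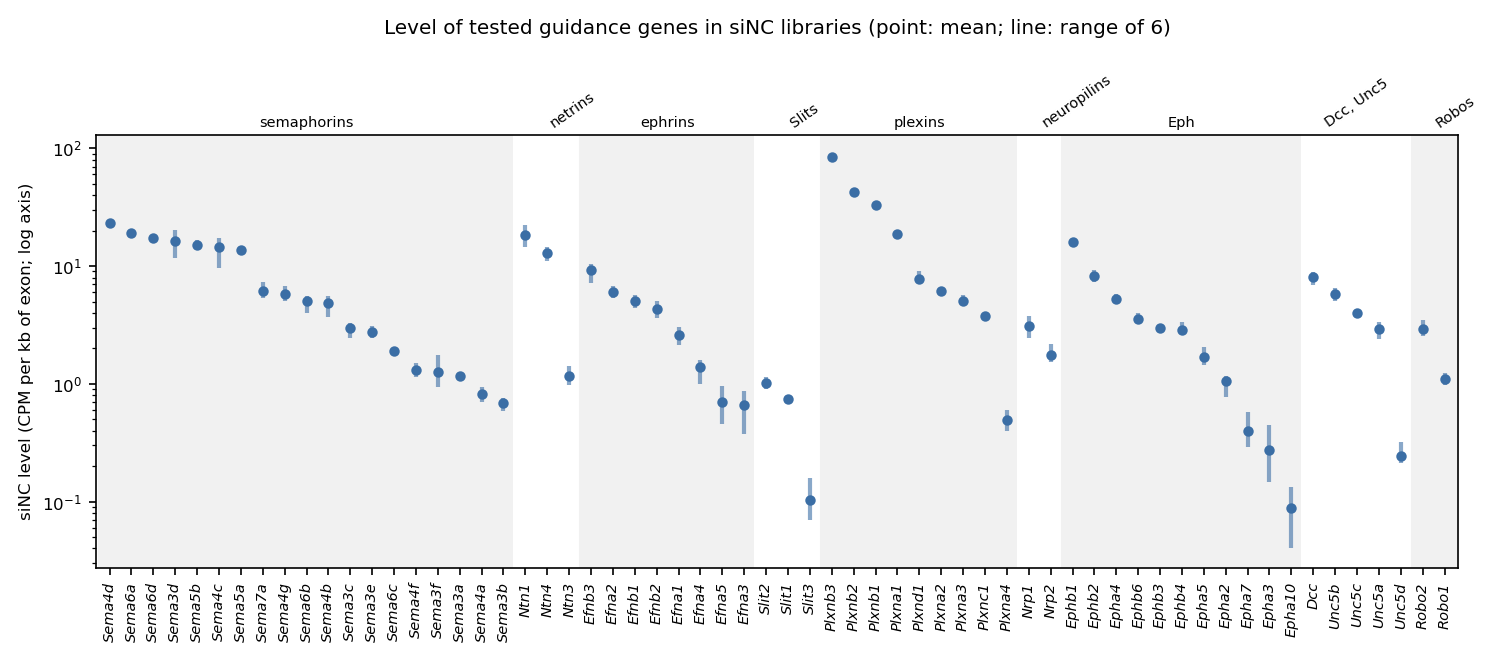
Mean siNC level of the 62 tested guidance genes in CPM per kb of exon (log axis), grouped by family, with a line for the range over the 6 siNC libraries. Plxnb3, Plxnb2 and Plxnb1 stand highest at 85.1, 42.6 and 33.2, ahead of the leading semaphorin Sema4d at 23.4 and the leading netrin Ntn1 at 18.3, and the Slits, Robos and neuropilins lie lower.

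Of the 9 plexins, 1 was called. Plxnd1, the receptor of class 3 and some class 4 semaphorins and known from blood vessel patterning (chromosome 6, 115954811 to 115995005), was at 51.1, 54.9 and 66.3 CPM in siNC and 29.8, 34.4 and 40.4 CPM in siEgr2. The groups did not overlap, and the level fell to 0.612 of siNC (log2 fold change -0.71 ± 0.09, SE; adjusted p = 2.48e-05; exact permutation p = 0.00216). Plxnb2 had the smallest adjusted p of all guidance genes (1.87e-05) with a difference under the fold threshold: 312, 330 and 350 CPM in siNC against 237, 255 and 279 CPM in siEgr2, a log2 fold change of -0.36 ± 0.04. Plxnb1 was likewise lower without overlap (296 to 329 against 246 to 288 CPM; -0.24 ± 0.04; adjusted p = 8.7e-04). Plxnc1, the receptor of Sema7a, was higher without overlap, at 29.1 to 32.1 CPM in siNC and 33.0 to 46.4 CPM in siEgr2 (0.31 ± 0.08; adjusted p = 0.00831). The 4 A-type plexins, which pair with neuropilins, did not pass (log2 fold changes of -0.09 to 0.01). The summed plexin level was 1531 to 1670 CPM in siNC and 1372 to 1495 CPM in siEgr2, a description with no test.

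Both neuropilins were lower in siEgr2 and 1 was called. Nrp1, co-receptor of Sema3a and of vascular endothelial growth factor (chromosome 8, 128358604 to 128503363), was at 23.9, 29.6 and 36.8 CPM in siNC and 16.5, 19.5 and 28.2 CPM in siEgr2. The groups overlapped, with a log2 fold change of -0.55 ± 0.14 (SE; adjusted p = 0.0118; exact permutation p = 0.0130). Without siNC replicate 3, siNC replicate 6, siEgr2 replicate 2 or siEgr2 replicate 3 it fell short of a call (-0.65 to -0.49 over all single leave-outs). Nrp2, co-receptor of Sema3f, was at 17.98, 19.6 and 25.6 CPM in siNC and 12.5, 14.4 and 20.7 CPM in siEgr2, with an adjusted p under 0.05 and a difference under the fold threshold (-0.46 ± 0.13; adjusted p = 0.0157). It crossed the fold threshold without siNC replicate 3 (-0.50) and without siEgr2 replicate 5 (-0.57).

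The Eph receptors held the largest fall of any guidance gene. Of 14, 11 were tested and 2 were called, both lower. Ephb4, the receptor of Efnb2 and a marker of veins (chromosome 5, 137350109 to 137378669), was at 11.98, 12.4 and 15.5 CPM in siNC and 4.63, 6.26 and 9.07 CPM in siEgr2. Every siNC library lay above every siEgr2 library, and the level was 0.509 of siNC (log2 fold change -0.97 ± 0.16, SE; adjusted p = 3.7e-04; exact permutation p = 0.00216). Epha2, a receptor of the A-type ephrins (chromosome 4, 141301240 to 141329384), was at 3.60, 5.21 and 5.41 CPM in siNC and 1.14, 2.57 and 4.04 CPM in siEgr2, with as few as 14 reads in a siEgr2 library. The groups overlapped only through the lowest siNC library (log2 fold change -0.90 ± 0.24; adjusted p = 0.0131). Ephb3 was higher in siEgr2 without overlap but under the fold threshold (17.9 to 21.2 against 22.9 to 25.8 CPM; 0.30 ± 0.07; adjusted p = 0.00636). Ephb1, the most abundant Eph receptor per kb (15.9 CPM per kb in siNC), did not pass (103, 111 and 121 against 85.0, 98.6 and 117 CPM; -0.16 ± 0.07; adjusted p = 0.141).

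Neither of the Robos tested passed. Robo2, the more abundant of the 2 tested (2.91 CPM per kb in siNC), was at 42.9, 45.8 and 59.0 CPM in siNC and 39.6, 50.4 and 55.8 CPM in siEgr2, a log2 fold change of -0.03 ± 0.10 (SE; adjusted p = 0.864). Robo1 also missed the adjusted p.

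The siNC libraries were not alike for the called genes. Replicates 3 and 6, one of the close pairs, were the 2 highest siNC libraries for 8 of the 11 called genes (72.7%). The share was 24.2% of the 62 tested guidance genes and 14.4% of all genes tested. Among genes called lower it was 7 of 10 guidance genes (70%), against 33.9% of all genes called lower. With replicates 3 and 6 left out, 4 guidance genes were called lower and 1 higher, and 6.13% of all genes were called. That choice was made after these values were seen, and it lowers the siNC level of the 8 called genes by construction. Ephb4 (-0.85), Sema4b (-0.77), Plxnd1 (-0.61) and Sema4f (0.81) kept their calls, and Nrp2 gained one (-0.55). For Sema4f, 1 of the 8, a lower siNC level enlarges the rise. For Nrp2, replicates 3 and 6 were the 2 lowest siNC libraries (17.98 and 18.1 CPM), so leaving them out enlarges the fall. These 2 calls are thus no check on that choice. Ntn4 (-0.49) and Ntn1 (-0.36) stayed past the adjusted p and fell under the fold threshold, while Epha2 (-0.84), Sema3b (-0.74), Ntn3 (-0.55), Sema3f (-0.44) and Nrp1 (-0.41) no longer passed the adjusted p (0.0619 to 0.138). With the close pairs summed, Epha2 (-0.83), Sema3b (-0.78), Sema3f (-0.60), Nrp1 (-0.53) and Ntn1 (-0.46) no longer passed the adjusted p (0.0697 to 0.143).

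**Figure D4:**
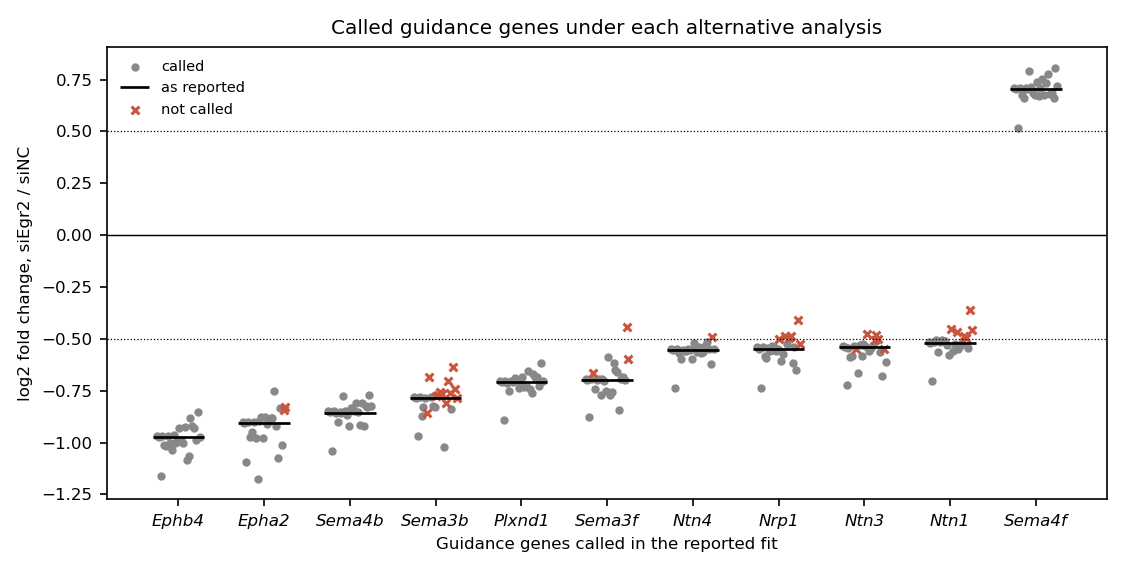
Log2 fold change (siEgr2 over siNC, vertical axis) of the 11 called guidance genes in the reported fit (black line) and in 24 alternative analyses, as grey points where the gene was still called and red crosses where it was not. Ephb4, Sema4b, Plxnd1 and Sema4f hold their call throughout, Ntn4 loses it once and Epha2 in 2, and Sema3b loses it in 12; no value crosses 0.

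Genes that act beside or below these families were read from 4 lists of 73 genes, all of them tested. Of these, 6 were called (8.22%, near the 7.72% of all genes), all lower, and 30 passed the adjusted p alone (41.1%, against 19.9% of all genes), 21 lower and 9 higher. Under library size scaling 12 were called lower, and 1 or 2 were called higher in 9 of the alternatives, 1 of them RLE scaling. In the semaphorin list 3 of 24 fell: Rnd1, which binds plexins, from 22.3 ± 1.90 to 10.8 ± 1.45 CPM (mean ± SD, n = 6; log2 fold change -1.04), Mical2, a flavoprotein that oxidises actin (-0.56), and Rras, a small GTPase inactivated by plexins (-0.55). In the netrin and Dcc list 3 of 20 fell: Draxin, a secreted ligand of Dcc (-0.81), Ntng1, a membrane-anchored netrin relative (-0.60), and Rgma, a ligand of the Dcc relative neogenin (-0.53, from 112 ± 6.05 to 77.5 ± 9.01 CPM). None of the 15 genes of the ephrin list or the 14 of the Slit and Robo list was called, with 4 and 7 past the adjusted p alone.

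Of the marker sums given here, those of astrocytes and of precursors lay apart between the groups, and those of the other lists overlapped. The 12 astrocyte markers summed to 8608 to 9312 CPM in siNC and 5499 to 6217 CPM in siEgr2, with 6 called lower and 0 higher, while the 11 precursor markers summed to 5347 to 5724 CPM and 6612 to 6782 CPM, with 3 called higher. The 10 fibroblast and pericyte markers summed to 905 to 1461 CPM in siNC and 909 to 1093 CPM in siEgr2, with 3 called lower. The 10 endothelial markers summed to 41.0 to 52.4 CPM and 43.3 to 53.3 CPM, with Cldn5 at 0 in every library and 1, Flt1, called lower; the 12 microglial markers summed to 25.7 to 32.1 CPM and 23.2 to 33.7 CPM, with Aif1 and Itgam at 0, and the 12 neuronal markers to 444 to 697 CPM and 428 to 670 CPM, with 1 called lower. In such bulk libraries fewer cells of a type and less RNA per cell cannot be told apart, and the part of these marker differences in the guidance genes was not tested.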

How the data were processed

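RNA selection, aligner, counting tool and strand setting are not given in the sources used here; the labels name total RNA, the study's methods 50 bp reads, and the submitters' processing notes the mm10 build. The authors deposited whole-number read counts per gene symbol for the 12 libraries, 6 siNC and 6 siEgr2, grouped by the labels' treatment. The 1 row without a symbol held no reads and was left out.

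From these counts, edgeR 4.0.16 (R 4.3.3) filtered low counts with filterByExpr, scaled by TMM factors and fitted robust quasi-likelihood models over all 16600 genes that passed, with Benjamini-Hochberg adjustment over all of them. Levels are CPM on the TMM scale, divided by the exon length in kb (GENCODE, GRCm38) where genes are compared. For single genes log2(CPM + 0.5) was compared by a two-sided exact permutation test (924 assignments of the libraries). Total counts were lower in siEgr2 (8034251 to 16683677) than in siNC (28682946 to 39383014), so siEgr2 values, and those of genes with few reads, are less precise.

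The text names every called member, the most abundant of each family per kb, the 10 uncalled members with the smallest adjusted p, and called genes of the pathway lists. The members and lists were chosen with earlier results of these data known. Within-group library pairs differed by more than sampling noise (chi-square per gene 7.15 to 37.2 over 30 pairs), so none was taken as a repeated deposit, although 5 pairs were closer than the other pairs of their own group. Alternatives were RLE, upper-quartile and library-size scaling, DESeq2 1.42.0, limma-voom (limma 3.58.1), other filters, thinning to the smallest total, structural RNA left out, a replicate block and single libraries left out; siNC replicates 3 and 6 left out together and the closest library pairs summed were added after seeing the data. The promoter windows come from RefSeq tables on GRCm38.p6.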

Additional observations from a re-analysis of the deposited data

Results flagged for a closer look

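Each named gene and the library totals were checked for a library far from the other 5 of its group by Dixon's test. Of 60 groups 5 stood out, where chance gives about 3. Epha2 was at 3.60 CPM (118 reads) in siNC replicate 2 and at 4.83 to 5.41 CPM in the other siNC libraries. Sema3c was at 17.5 CPM in siNC replicate 4 against 21.2 to 23.3 CPM in the others. Nrp2 was at 20.7 CPM (162 reads) in siEgr2 replicate 5 against 12.5 to 15.4 CPM, and Sema3f at 5.74 CPM (93 reads) in siEgr2 replicate 3 against 3.36 to 3.996 CPM. The total of siNC replicate 6 was 39383014 counts against 28682946 to 32460116 in the other siNC libraries.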

How the results depend on the processing

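The 10 guidance genes called lower and the 1 called higher stayed within 1.5 times that number under every other scaling, test, filter and single leave-out tried (7 to 14 lower, 1 higher). The exceptions were a log2 fold change threshold of 1, which left 0 lower and 0 higher, the loss of siNC replicates 3 and 6 together, which left 4 lower, and the close library pairs summed, which left 6 lower and 1 higher. The number past the adjusted p alone, 22, became 35 under library size only, 14 without siNC replicates 3 and 6 and 11 with the close pairs summed, and otherwise ran from 18 to 24. Library size only moved the median of all genes by -0.18 on the log2 scale, raised the share called to 11.9% and the share of those calls that were lower from 65.9% to 88%; it added Nrp2, Epha7, Sema3c and Plxnb2 to the calls, and the uncalled Ephb3, Plxnc1, Sema7a, Sema6c and Unc5a, higher in siEgr2, stayed positive there without passing the adjusted p. Of these, Ephb3 (0.0564) and Sema7a (0.0516) also missed it when thinned, Sema6c without siNC replicates 3 and 6 (0.0586), and Ephb3 (0.0762), Sema7a (0.0501) and Sema6c (0.0698), like Sema3c (0.0523), with the close pairs summed. Library size only moved Dcc from 0.144 to -0.0389 with that common shift. Robo2 ranged from -0.0831 to 0.0255 over the single leave-outs and turned positive in 4 of them: without siNC replicate 1, siNC replicate 5, siEgr2 replicate 1 and siEgr2 replicate 4. Sema3f missed the threshold in limma-voom. The cause of these changes was not tested. Replicate numbers shared by the groups did not pair the libraries (correlations of -0.02 to 0.05, and 2 of 6 siEgr2 libraries closest to their own number); with the replicate block 8 guidance genes were called lower, 1 higher and 20 passed the adjusted p, with Ntn3 (-0.55) and Sema3b (-0.86) lost through the adjusted p (0.0584 and 0.0679). Among the called genes depth limits Sema3b and Epha2 most, with as few as 8 and 14 reads in a siEgr2 library.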

Other observations

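Sema4c and Sema3d, singled out after their values were seen, split within a group rather than between groups. Sema4c, a membrane semaphorin, was at 73.0, 76.9, 80.2 and 79.3 CPM in siNC replicates 1, 4, 5 and 6 and at 44.1 and 46.0 CPM in replicates 2 and 3, and in siEgr2 at 80.0, 79.0 and 73.2 CPM in replicates 1, 2 and 6 and at 48.5, 50.1 and 57.0 CPM in replicates 3, 4 and 5. Its log2 fold change was -0.04, and 7.3% of its exon bases lie opposite D430040D24Rik. Sema3d, a secreted semaphorin, was at 162, 173 and 162 CPM in siNC replicates 1, 2 and 5 and at 122, 101 and 123 CPM in replicates 3, 4 and 6, against 156 to 191 CPM in siEgr2 (log2 fold change 0.31; adjusted p = 0.1004). The precursor marker Lhfpl3, also singled out after its values were seen, was at 372, 386 and 361 CPM in replicates 1, 2 and 5 and 191, 197 and 193 CPM in replicates 3, 4 and 6. The other precursor markers did not share one split: Ptprz1 was higher in replicates 1, 2 and 5, Cspg4, Olig1 and Olig2 were lower there, and the rest overlapped. No test was run on these splits, which follow no label.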
